A study of Mus musculus with 9 samples.

Results

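The cathepsins are a set of proteases, most of them lysosomal, that share a name but not their chemistry. The 10 genes described here are Ctsa, Ctsb, Ctsc, Ctsd, Ctse, Ctsh, Ctsk, Ctsl, Ctss and Ctsz, found by their symbols among the 35275 entries of a table of liver read counts. All 10 had counts, and 9 entered the test with 13151 genes in all, since Ctse was too low. The study asked how AdipoRonPEG5, a PEGylated analog, and its parent AdipoRon, a synthetic compound that activates adiponectin receptors, act on the liver. Total RNA was sequenced from livers of C57BL/6 mice given AdipoRonPEG5, AdipoRon or the PBS vehicle, with 3 libraries in each group. The labels give injections 2 times a day over 5 days, at 5 mg/kg for each compound and in the same words for PBS, which leaves the dose uncertain. The study's title speaks of insulinopenic mice and of a high fat diet, and the labels do not say whether either applied here. Age and sex are not stated in the sources used here, nor whether the libraries of a group came from separate animals. If they did not, the p-values below measure only technical spread.

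Most cathepsins are cysteine proteases of the papain family, made as inactive proenzymes that are cut into their active form in the acid lumen of the lysosome. Cathepsins D and E are aspartic proteases and cathepsin A is a serine carboxypeptidase. In the liver, hepatocytes and Kupffer cells, the resident macrophages, use them to break down protein delivered by endocytosis and autophagy, and antigen-presenting cells use cathepsin S to trim the invariant chain of MHC class II. Cystatins and some serpins bind and block the cysteine members.

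With AdipoRonPEG5, transcripts of the aspartic protease gene Ctsd and the cysteine protease gene Ctss were higher than with vehicle, Ctsd by a factor of 1.46 and Ctss by a factor of 3.29. With AdipoRon, Ctss alone passed the test among the 9, at a factor of 2.33, and this call depended on the libraries used. Between the compounds, Ctsd was higher with AdipoRonPEG5. The other 7 tested members passed in no comparison.

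The promoters of both genes that were called, of the gene next to Ctss and of one uncalled member are shown first, since they are the regulatory sequence next to the finding. RefSeq (GRCm38.p6) promoters were matched for 7 of the 10 members, in 8 windows of 250 bases that end at the base before the start. Capitals mark matches to short motifs, searched on both strands and chosen with these sequences in view. CACGTG, the E-box core, and TCACGTGA, an extended form that contains it, are the kind of site that the lysosomal regulator TFEB binds. TGACNNNGC is the core of the antioxidant response element, and GAAANNGAA of the interferon response element.
Ctsd, chr7:142387828-142388077, minus strand: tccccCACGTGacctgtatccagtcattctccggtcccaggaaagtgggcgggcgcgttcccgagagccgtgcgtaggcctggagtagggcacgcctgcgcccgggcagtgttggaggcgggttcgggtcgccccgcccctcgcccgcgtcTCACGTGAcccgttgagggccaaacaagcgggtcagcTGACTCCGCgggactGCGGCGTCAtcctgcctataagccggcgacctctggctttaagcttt
Ctss, chr3:95526536-95526785, plus strand: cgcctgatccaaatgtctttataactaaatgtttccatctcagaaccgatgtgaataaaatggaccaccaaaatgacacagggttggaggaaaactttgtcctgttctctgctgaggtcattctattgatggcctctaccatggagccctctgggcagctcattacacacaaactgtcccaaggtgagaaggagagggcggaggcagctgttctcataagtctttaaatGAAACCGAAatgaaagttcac
Ctsk, chr3:95498960-95499209, plus strand: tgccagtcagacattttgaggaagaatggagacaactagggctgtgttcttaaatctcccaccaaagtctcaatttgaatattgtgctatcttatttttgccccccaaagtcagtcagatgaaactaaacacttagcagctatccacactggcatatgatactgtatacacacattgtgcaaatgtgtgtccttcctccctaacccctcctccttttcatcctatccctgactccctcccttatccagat
Ctsa, start 2, chr2:164833523-164833772, plus strand: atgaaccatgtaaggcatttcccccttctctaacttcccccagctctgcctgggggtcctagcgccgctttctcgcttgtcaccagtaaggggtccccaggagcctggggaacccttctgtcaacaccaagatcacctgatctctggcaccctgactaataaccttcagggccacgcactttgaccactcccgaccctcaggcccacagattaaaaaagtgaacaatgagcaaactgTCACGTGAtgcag

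In the Ctsd window, CACGTG stands at 245 to 240 bases before the start and again at 98 to 93, where it lies inside TCACGTGA. TGACNNNGC stands at 62 to 54 on the plus strand of the gene and at 47 to 39 on the opposite one. The Ctss window holds GAAANNGAA at 21 to 13 bases before the start, and Ctsk, its neighbour on chromosome 3, holds none of these motifs. Ctsa, which did not pass the test, shares TCACGTGA with Ctsd at 13 to 6 bases before its second start. Over 32851 promoter windows of this length, CACGTG was found in 6.02%, TCACGTGA in 0.785%, TGACNNNGC in 10.2% and GAAANNGAA in 7.13%. Of the 8 cathepsin windows, 3 held CACGTG (Ctsa, Ctsd and Ctsl), 2 held TCACGTGA, 2 held TGACNNNGC (Ctsd and Ctsz) and 1 held GAAANNGAA. GAGGAAGT, a site of the type bound by the myeloid factor PU.1, was in 1 of them, that of Ctsc, and in 2.44% of all windows. Since the motifs were chosen with these sequences in view, the counts beside these shares do not test enrichment. A match is a description of letters, and binding was not measured.

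Values within a gene are given in CPM, read counts relative to the library total after TMM scaling. Vehicle 1 was the deepest library, with a total of 39473195 counts, and the remaining totals ran from 13942322 to 18508950. Genes were called at an adjusted p of 0.05 from edgeR's quasi-likelihood test with Benjamini-Hochberg adjustment over all 13151 genes. Against vehicle, AdipoRonPEG5 called 2 of the 9 tested cathepsins higher and 0 lower, beside 9.55% of all genes higher and 7.63% lower (17.2% in either direction). AdipoRon called 1 higher and 0 lower, beside 3.8% of all genes higher and 1.4% lower (5.2% in either direction). Between AdipoRonPEG5 and AdipoRon, 1 was higher and 0 lower, beside 2.68% of all genes higher and 2.71% lower (5.39% in either direction). The 0 lower was also the count at an unadjusted p under 0.05, by DESeq2 and by voom in each comparison. With 9 genes tested these counts are too small to set apart from the share of all genes, and the results below concern single genes.

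Ctsd, the main aspartic protease of the lysosome, was at 416, 432 and 442 CPM in AdipoRonPEG5 livers, at 328, 305 and 313 CPM in AdipoRon livers, and at 295, 289.9 and 301 CPM in vehicle livers. The 3 AdipoRonPEG5 libraries lay above all 6 others. Ctsd rose with AdipoRonPEG5 against vehicle, with a log2 fold change of 0.54 ± 0.074 (SE, n = 3 each; edgeR Benjamini-Hochberg adjusted p = 0.00114). It was also higher with AdipoRonPEG5 than with AdipoRon, with a log2 fold change of 0.45 ± 0.074 (95% interval 0.28 to 0.61, edgeR adjusted p = 0.00932). With AdipoRon against vehicle the log2 fold change was 0.096 ± 0.074 (95% interval -0.068 to 0.26, edgeR adjusted p = 0.494), although the 3 AdipoRon libraries lay above the 3 vehicle libraries. Both calls of Ctsd held in all 18 alternative settings, each single library left out included, with log2 fold changes of 0.52 to 0.63 against vehicle and 0.43 to 0.48 against AdipoRon. Here as in all that follows, more cells of a type and more RNA per cell cannot be told apart in bulk tissue.

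Ctss, the cathepsin of macrophages and other antigen-presenting cells, was at 46.0, 41.9 and 53.5 CPM in AdipoRonPEG5 livers, at 51.4, 22.8 and 25.8 CPM in AdipoRon livers, and at 12.9, 13.9 and 16.4 CPM in vehicle livers. All 6 libraries of the compounds lay above the 3 of vehicle, and AdipoRon 1 lay among the AdipoRonPEG5 libraries rather than beside AdipoRon 2 and 3. Ctss rose with AdipoRonPEG5, with a log2 fold change of 1.72 ± 0.26 (SE, n = 3 each; edgeR Benjamini-Hochberg adjusted p = 0.00191), and this call held in all 18 alternatives (1.61 to 1.84). It rose with AdipoRon, with a log2 fold change of 1.22 ± 0.26 (edgeR adjusted p = 0.0258). That call was lost without vehicle 1 (adjusted p = 0.0835), without vehicle 2 (0.0884) and when only the 6 libraries of these groups were fitted (0.0697), and without AdipoRon 1 the log2 fold change was 0.76. Between the compounds the log2 fold change was 0.50 ± 0.25 (95% interval -0.049 to 1.05, edgeR adjusted p = 0.275), which did not pass. Without AdipoRon 1 it was 0.96 and passed (adjusted p = 0.00742), so that 1 library decides whether the compounds are called different in Ctss.

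**Figure D1:**
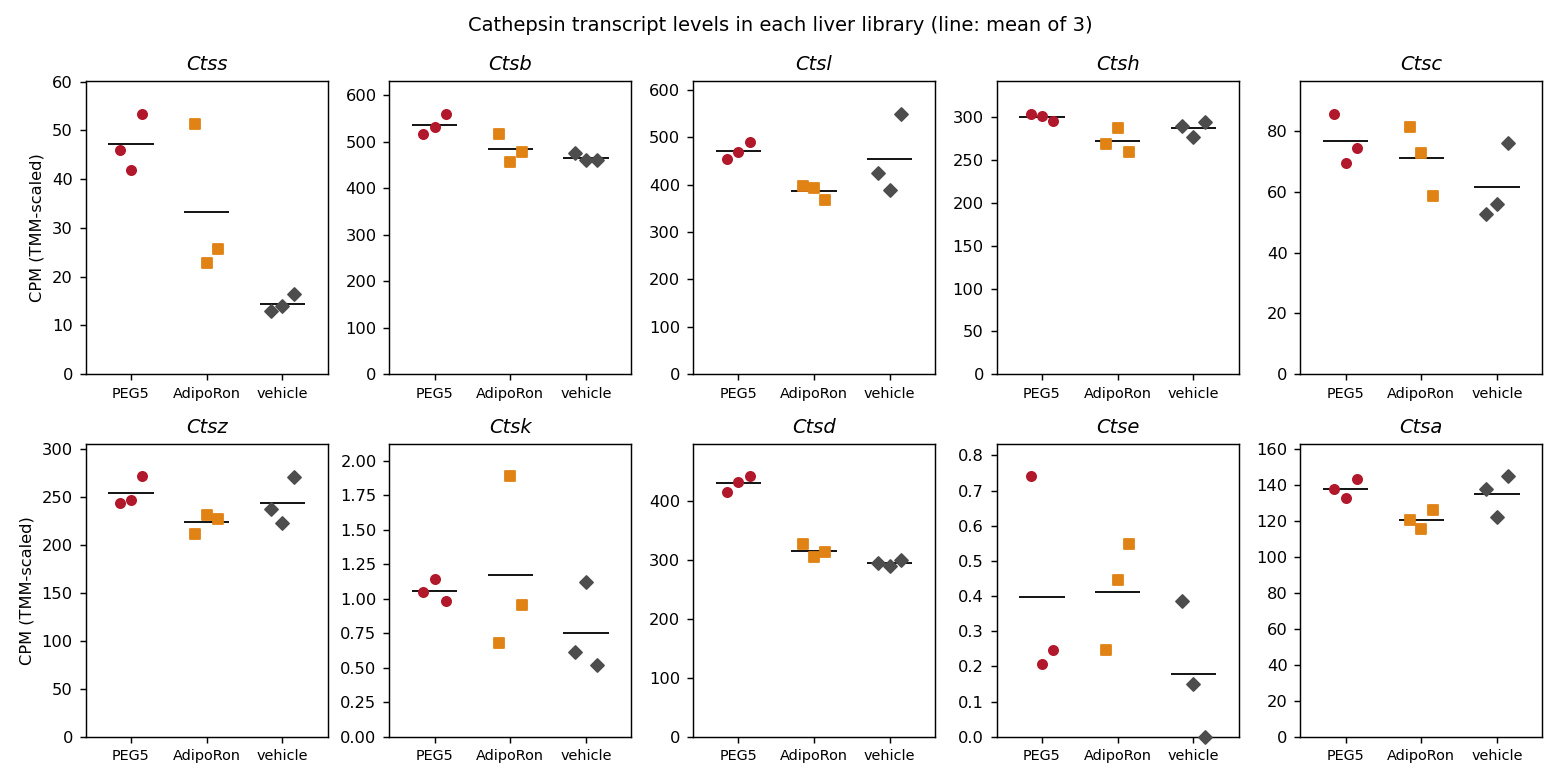
TMM-scaled CPM (y axes, each from 0) of the 10 cathepsins in 3 AdipoRonPEG5 (PEG5), 3 AdipoRon and 3 vehicle liver libraries; each point is a library and each line the mean of 3. The 3 AdipoRonPEG5 points of Ctsd sit at 416 to 442 CPM above all others, and in Ctss 1 AdipoRon library, at 51.4 CPM, sits with the AdipoRonPEG5 ones.

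Markers of macrophages moved with Ctss. The 16 Kupffer cell and macrophage markers summed to 844 to 920.4 CPM in AdipoRonPEG5 livers, to 564 to 1003 CPM in AdipoRon livers with the highest value in AdipoRon 1, and to 250.5 to 388 CPM in vehicle livers. None of the 16 was at 0 in any library. Beside 9.55% and 3.8% of all genes, 14 of the 16 were called higher with AdipoRonPEG5 (median log2 fold change 1.64) and 13 with AdipoRon (1.33; 9 without vehicle 1 or without vehicle 2). The 4 named ones were the scavenger receptor Marco (4.26), the macrophage apoptosis inhibitor Cd5l (1.98), the complement gene C1qc (1.65) and Aif1 (1.90), each given as the log2 fold change of AdipoRonPEG5 against vehicle. Between the compounds edgeR, DESeq2 and voom each called 0 of the 16 (median log2 fold change 0.22), with 1 at an unadjusted p under 0.05.

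The level of Ctss was also expressed relative to these markers. Per 100 CPM of summed markers, Ctss was at 5.34, 4.97 and 5.81 CPM in AdipoRonPEG5 livers, at 5.12, 3.525 and 4.57 CPM in AdipoRon livers, and at 4.81, 5.55 and 4.24 CPM in vehicle livers. The ranges of the 3 groups overlapped. The markers rose unequally with AdipoRonPEG5, by log2 fold changes from 0.78 (Fcna) to 4.26 (Marco), and abundant ones weigh most in the sum. The ratio therefore depends on the markers chosen. Ctsd was at 48.0 to 51.2 CPM per 100 CPM of markers in AdipoRonPEG5 livers, at 32.7 to 55.5 CPM in AdipoRon livers and at 77.5 to 116 CPM in vehicle livers, so that vehicle was highest on this scale. In AdipoRon 1, the library with the most macrophage marker RNA, Ctsd itself was at 328 CPM, below all 3 AdipoRonPEG5 libraries. The part of macrophage number in the rise of either gene was not tested.

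**Figure D2:**
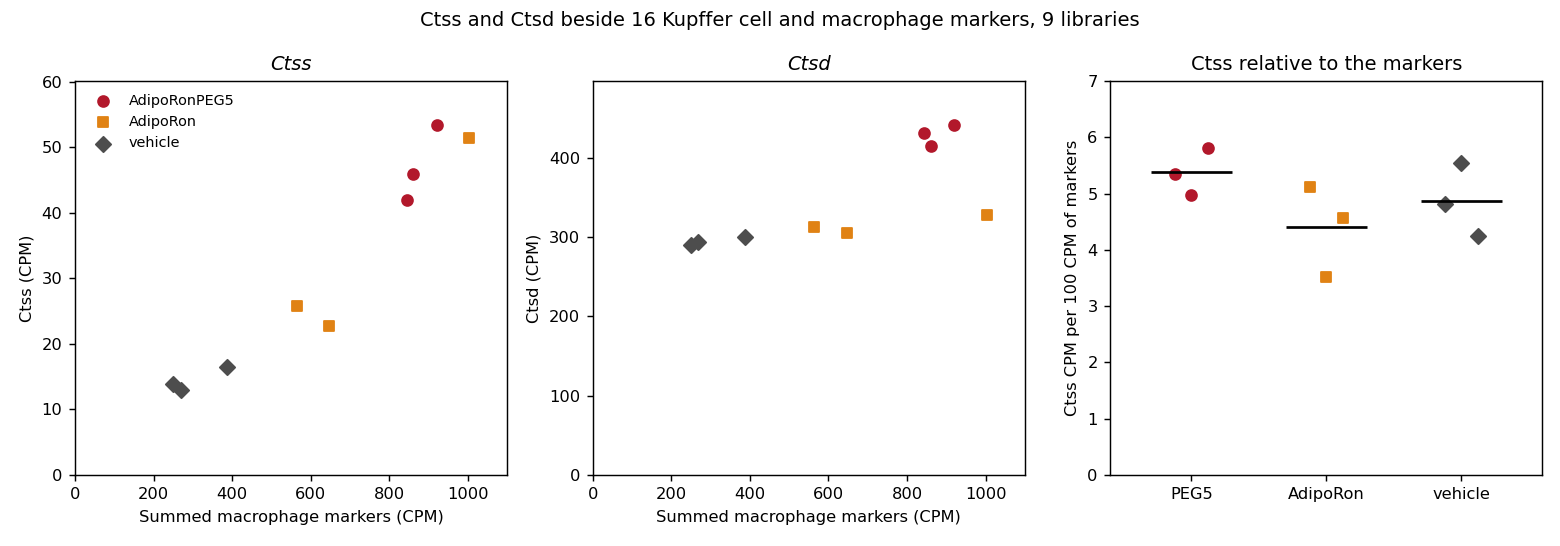
Ctss (left) and Ctsd (middle) in CPM against the summed CPM of 16 macrophage markers in 9 libraries, and Ctss per 100 CPM of these markers by group (right; line: mean of 3; PEG5 is AdipoRonPEG5). The 4 libraries with marker sums of 844 CPM or more are those with Ctss at 41.9 CPM or more, while Ctsd lies at 289.9 to 328 CPM in AdipoRon and vehicle libraries across marker sums of 250.5 to 1003 CPM.

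The antigen presentation genes that cathepsin S serves were measured beside it. The 11 genes of MHC class II and its loading summed to 370.3, 284.5 and 403 CPM in AdipoRonPEG5 livers, to 289 CPM in AdipoRon 1 against 75.0 and 93.6 CPM in AdipoRon 2 and 3, and to 66.5 to 73.8 CPM in vehicle livers. AdipoRon 1 again lay with the AdipoRonPEG5 libraries. Of all genes 9.55% were called higher with AdipoRonPEG5, 3.8% with AdipoRon and 2.68% between the compounds. Of the 10 tested in this list, 9 were called higher with AdipoRonPEG5 (median log2 fold change 2.44), 0 by edgeR with AdipoRon (1.15; 8 at an unadjusted p under 0.05, 2 by DESeq2 and 0 by voom) and 1 between the compounds (1.29). In the alternatives these counts ran from 8 to 10 with AdipoRonPEG5, from 0 to 5 with AdipoRon and from 0 to 8 between the compounds, with 8 without AdipoRon 1. In 4 libraries 1 of the 11 was at 0. Named by the rule of lowest p were the transactivator Ciita, the thiol reductase Ifi30, the loading chaperone chain H2-DMa and H2-Eb1, at log2 fold changes of 2.61, 1.01, 2.96 and 2.49 with AdipoRonPEG5. Cd74, the invariant chain and a substrate of cathepsin S, added after its values were seen, averaged 137 CPM with AdipoRonPEG5, 58.4 CPM with AdipoRon and 24.3 CPM with vehicle (edgeR adjusted p = 0.00622 with AdipoRonPEG5 and 0.15 with AdipoRon, each against vehicle).

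Ctsl, an endopeptidase and by length the most abundant member in all 3 groups, was at 454, 469.6 and 489 CPM in AdipoRonPEG5 livers, at 397, 393 and 368 CPM in AdipoRon livers, and at 426, 388 and 550.1 CPM in vehicle livers. Vehicle 3 was the highest of all 9, and the AdipoRonPEG5 libraries lay above the AdipoRon ones. The log2 fold change between the compounds was 0.29 ± 0.12 (95% interval 0.023 to 0.55, edgeR adjusted p = 0.191) and passed only without vehicle 3 (0.29, adjusted p = 0.0394). Against vehicle it was 0.051 ± 0.12 with AdipoRonPEG5 and -0.24 ± 0.12 with AdipoRon (95% intervals -0.21 to 0.31 and -0.50 to 0.028).

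Ctsb, which cuts both inside proteins and from their ends, was at 517, 533 and 561 CPM in AdipoRonPEG5 livers, at 518, 456 and 478 CPM in AdipoRon livers, and at 476, 460.1 and 462 CPM in vehicle livers. The AdipoRonPEG5 libraries lay above the vehicle ones, and AdipoRon 1 was higher than AdipoRonPEG5 1. With AdipoRonPEG5 the log2 fold change was 0.20 ± 0.082 (95% interval 0.023 to 0.38, edgeR adjusted p = 0.114), which did not pass. Of the 18 alternatives it passed in 1, scaling by total counts (0.29, adjusted p = 0.0423), a scaling that moved the median of all genes to 0.081 in this comparison.

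Ctsk, the collagen-cutting protease of osteoclasts, was close to the limit of detection, with 17, 22 and 16 counts in AdipoRonPEG5 libraries, 11, 34 and 14 in AdipoRon libraries and 24, 15 and 7 in vehicle libraries. In CPM it was at 1.05, 1.14 and 0.987 with AdipoRonPEG5, at 0.679, 1.89 and 0.957 with AdipoRon, and at 0.617, 1.12 and 0.521 with vehicle. The groups overlapped. Its log2 fold change with AdipoRonPEG5 was 0.55 ± 0.42, as large as that of Ctsd, with a 95% interval of -0.38 to 1.47 (edgeR adjusted p = 0.416), so that a change of that size was not detectable at this depth. With AdipoRon it was 0.71 ± 0.42 (edgeR adjusted p = 0.356). Ctsk is the coding gene next to Ctss on chromosome 3.

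Of the members that trim proteins from their ends, Ctsc, the dipeptidyl peptidase that activates granule serine proteases of immune cells, was at 85.8, 69.7 and 74.4 CPM in AdipoRonPEG5 livers, at 81.4, 72.9 and 58.8 CPM in AdipoRon livers, and at 52.7, 55.9 and 76.2 CPM in vehicle livers. Vehicle 3 lay among the libraries of the compounds. With AdipoRonPEG5 the log2 fold change was 0.32 ± 0.15 (95% interval -0.019 to 0.65, edgeR adjusted p = 0.184). Without vehicle 3 it was 0.50 and passed (adjusted p = 0.0257). With AdipoRon it was 0.21 ± 0.15 (edgeR adjusted p = 0.466).

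Ctsh, an aminopeptidase, was at 304, 301 and 296 CPM in AdipoRonPEG5 livers, at 269, 287 and 259.9 CPM in AdipoRon livers, and at 290.1, 277 and 294 CPM in vehicle livers. The AdipoRonPEG5 libraries lay just above the others, with log2 fold changes of 0.066 ± 0.074 against vehicle and 0.14 ± 0.074 against AdipoRon (95% intervals -0.098 to 0.23 and -0.020 to 0.31). Ctsz, a carboxypeptidase, was at 243, 247 and 271 CPM in AdipoRonPEG5 livers, at 212, 231 and 227 CPM in AdipoRon livers, and at 238, 223 and 271 CPM in vehicle livers. Its groups overlapped for each compound against vehicle and not between the compounds, where the log2 fold change was 0.18 ± 0.091 (95% interval -0.016 to 0.39, edgeR adjusted p = 0.27).

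Ctsa, the serine carboxypeptidase that also protects β-galactosidase and neuraminidase in the lysosome, was at 137, 133 and 143 CPM in AdipoRonPEG5 livers, at 121, 115 and 126 CPM in AdipoRon livers, and at 138, 122 and 145 CPM in vehicle livers. AdipoRonPEG5 and vehicle libraries overlapped, with a log2 fold change of 0.032 ± 0.080. The compounds did not overlap, with a log2 fold change of 0.19 ± 0.080 (95% interval 0.016 to 0.37, edgeR adjusted p = 0.191). Its partners, added after their values were seen, were not called either: Glb1 was at a log2 fold change of 0.32 with AdipoRonPEG5 (edgeR adjusted p = 0.0832) and Neu1 at 0.098 (adjusted p = 0.472).

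Ctse, the aspartic protease of stomach and some immune cells, had 12, 4 and 4 counts in AdipoRonPEG5 libraries, 4, 8 and 8 in AdipoRon libraries, and 15, 2 and 0 in vehicle libraries. A count of 0 allows up to 3 counts, 0.207 CPM in vehicle 3, for counting error only. With no filter on low counts its log2 fold changes were 0.76 ± 0.73 with AdipoRonPEG5 and 0.82 ± 0.73 with AdipoRon (edgeR adjusted p = 0.605 and 0.657 over 21500 genes). At this depth no difference was detectable.

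**Figure D3:**
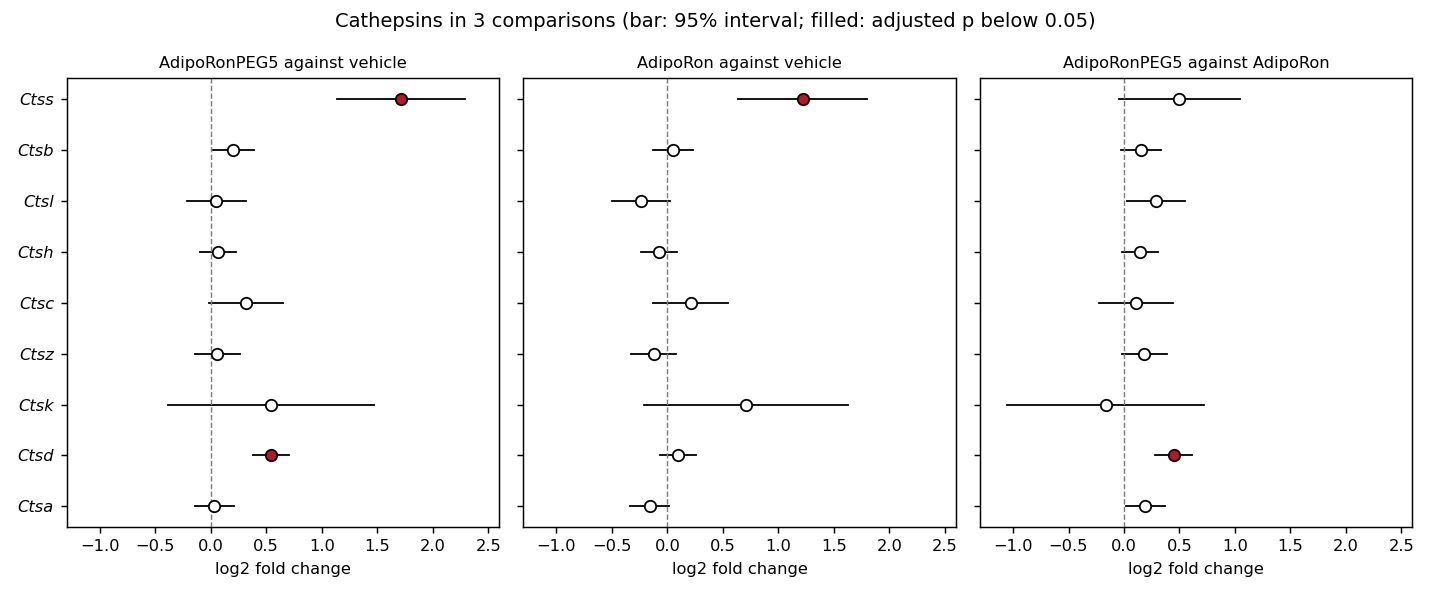
Log2 fold changes (x axes) of the 9 tested cathepsins, with AdipoRonPEG5 against vehicle on the left, AdipoRon against vehicle in the middle and the compounds against each other on the right (AdipoRonPEG5 over AdipoRon); bars are 95% intervals and filled points passed at an adjusted p of 0.05. Ctss and Ctsd pass on the left, Ctss in the middle and Ctsd on the right; the bars of Ctsk, a gene of 7 to 34 counts, are the widest.

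The fitted direction of the members, called or not, is given as a description. All 9 tested members had a positive log2 fold change with AdipoRonPEG5 (median 0.20, against -0.0013 over all tested genes), 5 had one with AdipoRon (median 0.054, against 0.0057) and 8 between the compounds (median 0.18, against -0.0125). With AdipoRonPEG5, 4 of 9 lay wholly above vehicle (Ctsb, Ctsd, Ctsh and Ctss) and 0 wholly below, beside 18.2% and 17% of all genes. With AdipoRon, 2 of 9 lay wholly above (Ctsd and Ctss) and 0 below, beside 14.4% and 12.4%. Between the compounds, 5 of 9 lay wholly above (Ctsa, Ctsd, Ctsh, Ctsl and Ctsz) and 0 below, beside 13.9% and 14.3%. Any pair of these comparisons shares the libraries of 1 group. Leaving out vehicle 2 turned the sign of Ctsa, Ctsl and Ctsz with AdipoRonPEG5. The intervals of these 3 against vehicle included 0, as did those of Ctsc, Ctsh and Ctsk. The direction of all these members is therefore not settled. Ctsb, with an interval above 0, was not called after adjustment.

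Together the 10 members took 0.224%, 0.232% and 0.2305% of all counts in the AdipoRonPEG5 libraries, 0.205%, 0.193% and 0.19% in the AdipoRon libraries, and 0.19%, 0.176% and 0.196% in the vehicle libraries. The AdipoRonPEG5 libraries were the 3 highest, and the other groups overlapped.

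Levels of different genes were compared by the deposited FPKM, which divide by gene length. In vehicle livers the order was Ctsl (220.2 ± 35.6 FPKM, SD, n = 3), Ctsz (162 ± 12.9), Ctsd (133 ± 3.19), Ctsh (100.2 ± 3.66), Ctsb (94.2 ± 4.39), Ctsa (35.1 ± 2.80), Ctsc (18.3 ± 3.24), Ctss (10.2 ± 0.966), Ctsk (0.487 ± 0.211) and Ctse (0.082 ± 0.090). Of these neighbours, Ctsh and Ctsb alone overlapped. In AdipoRonPEG5 livers Ctsd, at 205 ± 6.41 FPKM, stood above Ctsz, at 179 ± 7.34, with no overlap. Ctss, at 35.2 ± 3.45 FPKM, stood above Ctsc, at 24.2 ± 2.55, and overlapped Ctsa, at 38.0 ± 0.423. In AdipoRon livers the neighbours Ctsz and Ctsd, Ctsb and Ctsh, Ctsa and Ctss, and Ctss and Ctsc overlapped.

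**Figure D4:**
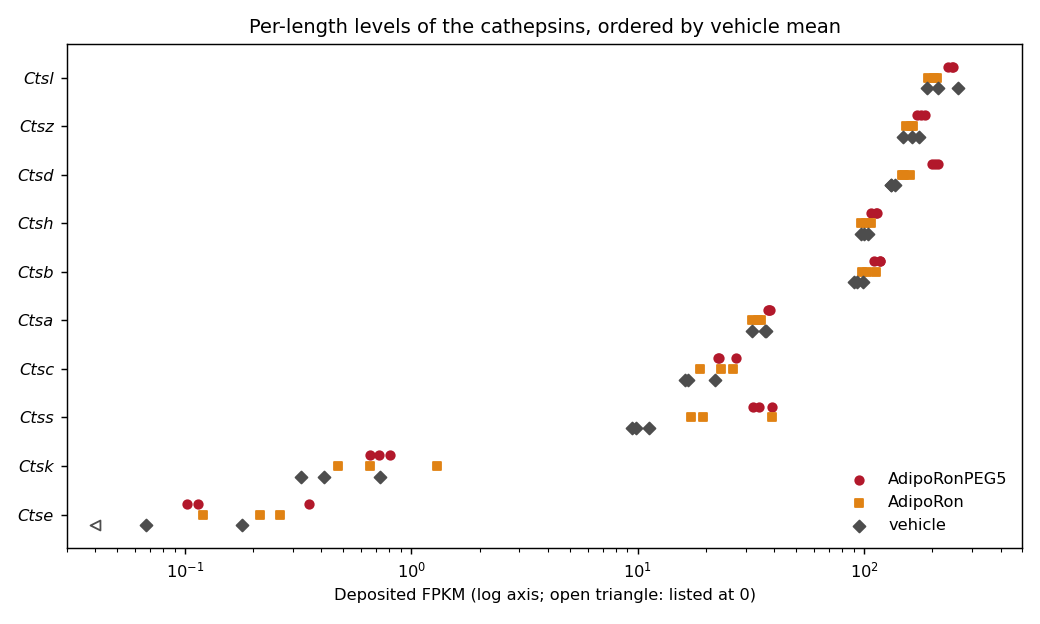
Deposited FPKM (log axis) of the 10 cathepsins, each point 1 library, with AdipoRonPEG5 above AdipoRon above vehicle within a gene; the open triangle is 1 vehicle library of Ctse listed at 0. Ctsl, Ctsz, Ctsd, Ctsh and Ctsb lie near or above 100.2 FPKM, and Ctss averages 35.2 FPKM with AdipoRonPEG5 and 10.2 FPKM with vehicle.

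How far replicates of a gene spread differed between members. The coefficient of variation of the CPM among vehicle libraries was 1.8% for Ctsd, 1.89% for Ctsb and 3.05% for Ctsh, against 18.7% for Ctsl and 20.7% for Ctsc, in both of which vehicle 3 was highest. Among AdipoRon libraries it was 47.2% for Ctss and 3.65% for Ctsd.

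The inhibitors of the cysteine cathepsins were next. Cstb, cystatin B, which blocks cysteine cathepsins in the cytosol, was at 65.3, 68.3 and 60.9 CPM in AdipoRonPEG5 livers, at 27.7, 26.6 and 27.6 CPM in AdipoRon livers, and at 31.2, 27.9 and 31.4 CPM in vehicle livers. The AdipoRonPEG5 libraries lay far above all others. Cstb rose with AdipoRonPEG5 against vehicle, with a log2 fold change of 1.10 ± 0.077 (SE, n = 3 each; edgeR adjusted p = 2.24e-05), and against AdipoRon, with 1.25 ± 0.077 (adjusted p = 1.05e-05). With AdipoRon against vehicle it was at -0.15 ± 0.078 (edgeR adjusted p = 0.302). Both calls held in all 18 alternatives. Of 10 listed inhibitors 4 were tested, and Serpina3g, a serpin that blocks cysteine cathepsins, was the other one called, with log2 fold changes of 2.43 ± 0.44 with AdipoRonPEG5 (edgeR adjusted p = 0.00468) and 2.01 ± 0.45 with AdipoRon (adjusted p = 0.0297, lost in 6 of 18 alternatives). Cst3, the secreted cystatin C, was at -0.074 and the kininogen gene Kng1 at -0.22 with AdipoRonPEG5, neither called.

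The median log2 fold change of other lysosomal hydrolases with AdipoRonPEG5 was 0.30. They were called higher in 9 of 32 cases and lower in none, beside 9.55% and 7.63% of all genes. Without vehicle 2 the count was 5, and in the other alternatives it lay between 6 and 13. Lgmn, legumain, which cuts several cysteine cathepsins into their mature chains, was at 67.7, 70.8 and 66.8 CPM in AdipoRonPEG5 livers, at 61.7, 53.5 and 49.8 CPM in AdipoRon livers, and at 28.8, 30.3 and 41.2 CPM in vehicle livers. No group overlapped another. Its log2 fold changes were 1.04 ± 0.13 with AdipoRonPEG5 (edgeR adjusted p = 0.000666) and 0.73 ± 0.13 with AdipoRon (adjusted p = 0.0116; 0.0585 without vehicle 2).

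The other 3 named hydrolases rose with AdipoRonPEG5 by smaller amounts: the ceramidase gene Asah1 by a log2 fold change of 0.68 ± 0.086, the dipeptidyl peptidase gene Dpp7 by 0.61 ± 0.10 and the β-mannosidase gene Manba by 0.52 ± 0.10 (edgeR adjusted p = 0.000776, 0.00274 and 0.00666). Asah1 was the 1 hydrolase of 32 called higher by edgeR with AdipoRonPEG5 than with AdipoRon (0.58 ± 0.086, edgeR adjusted p = 0.00582). Lgmn was the 1 called with AdipoRon against vehicle. Of all genes 2.68% and 3.8% were called higher in these comparisons. At an unadjusted p under 0.05, 13 of the 32 hydrolases were higher and 1 lower between the compounds, and 4 were higher with AdipoRon. DESeq2 called 2 higher between the compounds and 1 with AdipoRon. Psap, the saposin precursor that cathepsin D cuts and the gene most like Ctsb in its pattern, was at 563, 587 and 654 CPM in AdipoRonPEG5 livers, at 542, 430.0 and 479 CPM in AdipoRon livers, and at 449, 427 and 417 CPM in vehicle livers (log2 fold change 0.48 with AdipoRonPEG5, edgeR adjusted p = 0.00973). The AdipoRonPEG5 libraries lay above all others.

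Among 14 lysosomal membrane and lumen carriers, 4 were called higher and 0 lower with AdipoRonPEG5 (median log2 fold change 0.14), beside 9.55% and 7.63% of all genes. The 4 carriers were Laptm5, a lysosomal protein of blood cells (1.63 ± 0.18), Slc11a1, the metal transporter of macrophage phagosomes (1.85 ± 0.27), the tetraspanin gene Cd63 (1.20 ± 0.19) and Lamp1, a membrane glycoprotein (0.27 ± 0.080). Lamp2, named after its values were seen, averaged 599.9 CPM in vehicle livers, where Lamp1 averaged 575.3 CPM. Its log2 fold change with AdipoRonPEG5 was -0.17 (edgeR adjusted p = 0.173), which did not pass. The call of Lamp1 (edgeR adjusted p = 0.0433) held in 7 of 18 alternatives. Laptm5 and Slc11a1 were the 2 called with AdipoRon too (1.10 ± 0.18 and 1.65 ± 0.27), and Cd63 and Lamp1 the 2 called between the compounds (1.04 ± 0.19 and 0.36 ± 0.080), in 15 and 11 of 18 alternatives.

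The vacuolar ATPase, which acidifies the lumen, had 2 of 17 subunits called higher and 1 lower with AdipoRonPEG5 (median log2 fold change 0.16). Of all genes 9.55% were called higher and 7.63% lower, and counts of 2 and 1 cannot be set apart from these shares. Tcirg1 was at 0.42 ± 0.10, Atp6ap2 at 0.37 ± 0.090 and Atp6v0d2 at -1.39 ± 0.34, with calls that held in 15, 16 and 15 of 18 alternatives. The count of 2 was 0 without AdipoRonPEG5 2, 1 without AdipoRonPEG5 3 or vehicle 1, and 5 with scaling by total counts. With AdipoRon 0 were called higher by edgeR, DESeq2 or voom (1 at an unadjusted p under 0.05) and 1 lower, Atp6v1f, named after its values were seen (edgeR adjusted p = 0.0424). That count of 1 was 2 with DESeq2 and 0 with scaling by total counts, with the replicate block, in the fit of only these groups and whenever any single library was left out. Between the compounds edgeR and voom called 0, DESeq2 called 1, and 8 were higher at an unadjusted p under 0.05. None of 10 sorting genes and none of 11 regulators, Tfeb and Mitf among them, were called in any comparison with all 9 libraries by edgeR as described, DESeq2 or voom. The median log2 fold changes of these lists were 0.086 and -0.022 with AdipoRonPEG5. Without vehicle 3 and AdipoRonPEG5 1, edgeR called 1 sorting gene higher with AdipoRonPEG5 against vehicle. At an unadjusted p under 0.05 stood 1 sorting gene with AdipoRon, and 2 regulators with AdipoRonPEG5 and 1 between the compounds. Of these 21, the lowest p with AdipoRonPEG5 were those of Vps35 (log2 fold change 0.19, adjusted p = 0.177) and Zkscan3 (-0.22, adjusted p = 0.117). Of 13 further cathepsin genes, 3 were tested (Ctsf, Ctso and Ctsw) and none was called in any comparison by edgeR or under the 18 alternatives, nor had an unadjusted p under 0.05. Ctsw, of cytotoxic lymphocytes, had the lowest p (log2 fold change 0.81 ± 0.47, adjusted p = 0.271).

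**Figure D5:**
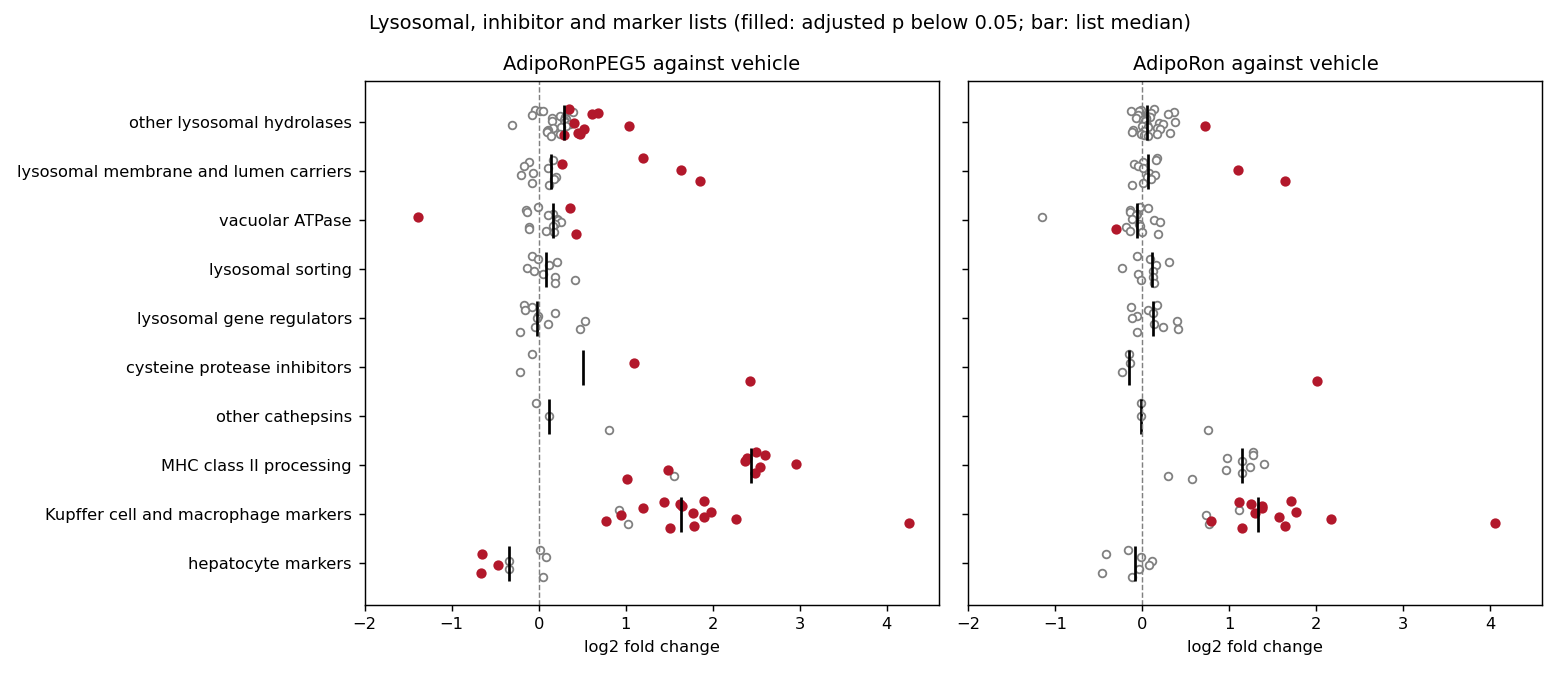
Log2 fold changes (x axes) of AdipoRonPEG5 (left) and AdipoRon (right) against vehicle for the tested genes of 10 lists; each point is a gene, filled where the adjusted p was below 0.05, and the bar is the list median. Other lysosomal hydrolases have a median of 0.30 on the left and 0.054 on the right, against 1.64 and 1.33 for macrophage markers.

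Markers of other cell types gave the setting of these values. Of all genes 9.55% were called higher and 7.63% lower with AdipoRonPEG5, and 3.8% and 1.4% with AdipoRon. A count of 1 in a list this short cannot be set apart from these shares. Hepatocyte markers were called lower in 3 of 8 cases with AdipoRonPEG5 (Apoa1, Serpina1c and Cps1; 1 of 8 without vehicle 2, AdipoRonPEG5 1 or AdipoRonPEG5 2) and in 0 by edgeR or voom with AdipoRon (2 by DESeq2 and 2 at an unadjusted p under 0.05). Their sum was at 81930.5 to 90695.5 CPM in AdipoRonPEG5 livers, 76145 to 85282 CPM in AdipoRon livers and 84609 to 97847 CPM in vehicle livers, which overlapped. Alb, at means of 55800, 49160 and 54970 CPM in these groups, made up most of this sum. Its log2 fold change with AdipoRonPEG5 was 0.022. Of monocyte markers 4 of 5 tested were called higher with AdipoRonPEG5 (Lyz2, Ccr2, Plac8 and Itgam) and 1 with AdipoRon. Their sum was at 70.5 to 97.1 CPM in AdipoRonPEG5 livers, 46.0 to 70.2 CPM in AdipoRon livers and 20.1 to 27.0 CPM in vehicle livers, with no overlap between groups. Lyz2, at means of 71.0, 45.2 and 18.4 CPM in these groups, made up most of this sum and was the 1 called with AdipoRon. Ccr2, at means of 3.63, 1.29 and 0.929 CPM, was not called with AdipoRon (edgeR adjusted p = 0.26). Of lymphocyte markers 3 of 6 were called higher with AdipoRonPEG5 (Cd79b, Cd79a and Cd3e) and 1 lower (Cd4), and of endothelial markers 1 of 6 was higher (Cdh5). Vehicle 1, 2 and 3 had 12, 2 and 1 counts of Cd79b, 13, 1 and 3 of Cd79a, and 1, 1 and 1 of Cd3e. Most of these lie at or under the floor of 3 counts. Cd79b and Cd3e were also called with AdipoRon (edgeR adjusted p = 0.0467 and 0.0211), in 4 and 12 of the 16 alternatives that tested them. Cdh5 was no longer called without vehicle 2, vehicle 3, AdipoRonPEG5 2 or AdipoRonPEG5 3. The count of higher lymphocyte markers was 2 without vehicle 2, AdipoRonPEG5 1 or AdipoRonPEG5 3, and 0 with the filter at 1 CPM. Cd4 was no longer called with voom, with scaling by total counts, with the replicate block, in the fit of only these groups or when any single library other than vehicle 1 or AdipoRon 2 was left out. Of stellate cell markers 1 of 9 was called higher (Col1a2), with 6 at an unadjusted p under 0.05. This count was 0 without vehicle 2 or AdipoRonPEG5 2, 2 with DESeq2, with scaling by total counts and without vehicle 1 or AdipoRon 2, 3 with voom, with no filter and without vehicle 3 or AdipoRonPEG5 1, and 4 without both of these last libraries. None of the dendritic cell (3 tested), cholangiocyte (5), erythroid (5) or gut epithelium (1) markers was called in any comparison with all 9 libraries by edgeR as described, DESeq2 or voom. Without vehicle 1, edgeR called 1 erythroid marker lower with AdipoRon against vehicle. In these lists cholangiocyte markers alone had 1 at an unadjusted p under 0.05, with each compound against vehicle. The lowest p with AdipoRonPEG5 in each list were those of Siglech, Krt7, Hbb-bt and Lgals4. The 1 tested gene of the exocrine pancreas list, Cela1, was called lower. The calls of Apoa1, Serpina1c, Cps1, Itgam, Cd3e, Col1a2 and Cdh5 with AdipoRonPEG5 were lost in at least 1 of the alternatives, and that of Cd4 held in 6 of 18. The 7 neutrophil markers, all too low for the edgeR test, summed to 4.26, 1.30 and 1.17 CPM in AdipoRonPEG5 1, 2 and 3. Their sums were 0.864 to 1.17 CPM in AdipoRon livers and 0.448 to 1.19 CPM in vehicle livers. DESeq2, which has its own filter, called 2 of these markers higher with AdipoRonPEG5, where AdipoRonPEG5 1 alone stood far above the other libraries. The part of these cell types in the results was not tested.

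Of the tested genes with a mean of at least 10 CPM (7658 for each member but Ctsk), the ones whose log-CPM most resembled that of each cathepsin over the 9 libraries were found by Pearson's r, as a description in which group differences and shared libraries count. Ctsd was most like Itfg1 (0.995) and the glutathione transferase gene Gstm3 (0.99). Ctss was most like Tmsb10, a thymosin (0.989), and the receptor kinase gene Axl (0.979), and Ctsb most like Psap (0.99) and Anxa5 (0.965). Ctsl was most like Tmem208 and Spcs1 (0.952 and 0.943), genes of protein entry into the endoplasmic reticulum, and Ctsz like Prkcsh and 0610031J06Rik (0.953 and 0.948). For Ctsa these were Dnajc15 and Csnk1g2 (0.952 and 0.936), for Ctsc Erlin1 and Armc5 (0.955 and 0.936), for Ctsh Zbtb8os and Dnajc10 (both 0.945) and for Ctsk Pald1 and Tfdp2 (0.866 and 0.848).

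Some members share exonic bases with neighbours in GENCODE M21, and whether the counting used strand is not stated in the labels. Ctsb overlaps the opposite-strand gene Fdft1 by 774 bases, Ctsa overlaps Pltp by 495 and Neurl2 by 324 bases, and Ctsz overlaps Nelfcd by 10 bases. For genes on opposite strands, reads from these stretches cannot be told apart without strand. Ctsd shares 808 bases with Gm49369, which lies on its own strand, and Ctsl shares 1742 bases with the antisense gene Gm47123 and 395 bases with the pseudogene Gm49230. None of these last 3 names is among the 35275 entries with read counts, so no count of their own exists here.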

How the data were processed

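Liver RNA of 9 libraries in 3 groups of 3 was analysed. The authors deposited 1 table of raw read counts and FPKM per gene; each FPKM is the count divided by a whole gene length and the library total (whole within 0.01 for 99.995% of values). Per the submitters' processing notes, STAR 2.5, TopHat, HTSeq 0.6.1, DESeq2 and edgeR were used, with no role or order; genome build, annotation and strand, not given in the sources used here, stay unnamed. Each AdipoRonPEG5 column carries another prefix and was tied to its sample by the description. Of 35275 entries, 21500 had a count and 126 share their name with another; no pair of libraries was identical. Adgre1 is listed as Emr1.

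All 9 libraries entered 1 edgeR 4.0.16 quasi-likelihood fit in R 4.3.3 (3 group means, TMM, filterByExpr with at least 10 counts in a library of median size and 15 in all, robust set to FALSE), with Benjamini-Hochberg adjustment over 13151 genes in each of 3 comparisons. The script was first run on simulated counts with set fold changes. CPM are TMM-scaled, and log-CPM used a prior count of 2. Intervals are at the 95% level. A floor of 3 counts is 0.076 to 0.215 CPM, for counting error only.

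The members, gene lists and alternatives were chosen with earlier results of these data known. Named were all members, up to 4 called genes with the lowest p of each list with AdipoRonPEG5 (the 1 lowest where none was called), and the 2 tested genes most like each member; others are said to be chosen after their values were seen. The alternatives were RLE or total-count scaling, leaving out the filter, keeping genes that averaged 1 CPM or more, DESeq2 1.42.0, voom of limma 3.58.1, only the 2 groups compared, a replicate block, vehicle 3 and AdipoRonPEG5 1 both left out (set apart by acute phase genes in earlier results), and each library left out. Applying them to the list genes was chosen after seeing the data. Promoters were taken from RefSeq, which gave none here for Ctsb, Ctse and Ctsh.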

Additional observations from a re-analysis of the deposited data

How the results depend on the processing

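Of the members' fits under the 18 alternatives, 473 kept direction and side of the threshold, 3 lost a call, 4 gained one and 6 changed sign; every change of call is given with its gene above. The sign changes were, without vehicle 2, Ctsa -0.038, Ctsl -0.054 and Ctsz -0.0044 (AdipoRonPEG5 against vehicle); with total-count scaling, Ctsh 0.022 (AdipoRon against vehicle); and, between the compounds, Ctsc -0.0094 without AdipoRon 3 and Ctsk 0.39 without AdipoRon 2, none of them called. Over all single libraries left out these ran to 0.082 (Ctsa), 0.21 (Ctsl), 0.14 (Ctsz), 0.22 (Ctsc) and -0.44 (Ctsk). Of the list genes, uncalled Hbb-bt was at 0.29 with voom, 0.11 with the replicate block, 0.34 without vehicle 3 and AdipoRonPEG5 1, and 0.51 without vehicle 3 (-0.61 without vehicle 1), and Lgals4 at 0.083 without vehicle 2 (-0.34 without vehicle 3). Total-count scaling moved the median of all genes to 0.081 and 0.10 against vehicle for AdipoRonPEG5 and AdipoRon; the genes called lower with AdipoRonPEG5 were then 584, and with AdipoRon 883 were higher and 64 lower. For AdipoRon against vehicle, DESeq2 called 367 lower, and the fit of only these groups 256 higher, 69 lower and 0 cathepsins. Same-numbered libraries did not deviate together (correlations -0.27 to 0.077 over 9 pairs, 0 above 0.1), and differently numbered ones ran from -0.30 to 0.32. Such values from 3 libraries a group cannot show whether the numbers pair them. With the replicate block 79 genes were lower with AdipoRon against vehicle, and 190 higher and 148 lower between the compounds. No call of a cathepsin changed with this block. Leaving out each library gave, with AdipoRonPEG5 against vehicle, 800 to 1288 genes higher, 536 to 1046 lower and 2 to 3 cathepsins higher; with AdipoRon against vehicle, 201 to 471, 41 to 177 and 0 to 1; and between the compounds, 135 to 551, 98 to 481 and 1 to 2. The cause of these shifts was not tested. Depth limits what can be said of Ctsk and Ctse.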
